A study of Mus musculus with 2 samples.

Results

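Genes for storing iron, moving it across membranes and freeing it from heme were compared between fibroblasts and macrophages. The 10 genes were taken by symbol from a table of 34295 genes: Fth1 and Ftl1, which encode the heavy and light subunits of ferritin, the exporter gene Slc40a1, Cp, Tfrc, Hfe, Steap3, Slc11a1, Slc11a2 and the heme oxygenase gene Hmox1. All 10 were found, each on 1 row, and 9 of them reached 5 TPM in at least 1 library. TPM are transcripts per 1000000 transcripts, a share of the library corrected for transcript length, so that levels of different genes can be compared.

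The series holds 2 poly(A) RNA libraries of wild-type C57BL/6J mouse cells, 1 from embryonic fibroblasts and 1 from macrophages grown out of bone marrow, and was made to survey growth factors and their receptors. The fibroblasts came from E13.5 to E14.4 embryos without head, fetal liver and other red tissue, were sorted to be negative for CD45, CD11b and F4/80, and were used at passage 4 to 7 from 100000 cells in complete DMEM with 10% serum. The macrophages were grown for 6 days from marrow whose red cells had been lysed, and 750000 cells were plated in RPMI-based medium with 10% serum and 30% medium conditioned by L929 cells. Neither culture received an iron or heme treatment that the labels name, and each cell type has 1 library without a replicate, so the values carry no error and no test was made. Cell type cannot be told apart from embryonic origin, passage, medium, cell number and preparation. Higher is used of a gene whose TPM plus 1 in a library was at least 4-fold that in the other, a log2 ratio of 2, with at least 5 TPM there. Log2 ratios are macrophage over fibroblast on TPM plus 1, whereas folds such as 20.1-fold were taken on TPM with nothing added.

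Iron enters most cells bound to transferrin through the transferrin receptor, is reduced in the endosome by a STEAP enzyme and leaves the endosome through the divalent metal transporter SLC11A2. Ferritin, a shell of heavy and light chains, stores what is not used, and ferroportin, the product of Slc40a1, is the exporter of iron from animal cells. Macrophages are known for recycling iron from old red cells, in which heme oxygenase opens the heme ring and frees the metal. Iron regulatory proteins bind a hairpin, the iron-responsive element, in messenger RNAs of this system when iron is scarce. In the 5′ untranslated region (UTR) such a hairpin blocks translation, and in the 3′ UTR of Tfrc it protects the messenger from decay.

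These hairpins are shown because they lie in the messengers whose levels are compared here. A search of the sense strand of GENCODE M21 transcripts (GRCm38) for a C, 5 bases, the loop CAGTGN and 5 bases that pair with the first 5, with G:T pairs allowed and at most 1 mismatch, found a match in a UTR of 5 of the 10 genes. Each is printed 5′ to 3′ as 27 bases with the loop in capitals, a position and a strand.
Fth1, 5′ UTR, plus strand, chr19:9982733-9982759: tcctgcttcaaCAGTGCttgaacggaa
Ftl1, 5′ UTR, minus strand, chr7:45459780-45459806: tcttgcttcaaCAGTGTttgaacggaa
Slc40a1, 5′ UTR, minus strand, chr1:45925466-45925492: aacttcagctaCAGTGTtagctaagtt
Tfrc, 3′ UTR, plus strand, chr16:32631220-32631246: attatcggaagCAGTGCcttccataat
Tfrc, 3′ UTR, plus strand, chr16:32631599-32631625: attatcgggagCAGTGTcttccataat
Tfrc, 3′ UTR, plus strand, chr16:32631664-32631690: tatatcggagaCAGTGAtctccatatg
Tfrc, 3′ UTR, plus strand, chr16:32631711-32631737: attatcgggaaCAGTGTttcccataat
Slc11a2, 3′ UTR, minus strand, chr15:100395154-100395180: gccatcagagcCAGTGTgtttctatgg
All but the Slc11a2 match, which has 1 mismatch, formed all 5 pairs. The elements of the ferritin, ferroportin, transferrin receptor and Slc11a2 messengers were known before the search, so finding them does not test the list. Of 21877 protein-coding genes searched, 0.942% held a match in a 5′ UTR, 4.05% in a 3′ UTR and 6.29% in the coding part. One further match, with 1 mismatch, lay in the coding part of Slc11a1. No match was found in Hmox1, Cp, Steap3 or Hfe, which says only that these letters were not in their transcripts. The element stands in 4 of 5 protein-coding transcripts of Fth1, 1 of 2 of Ftl1, 1 of 4 of Slc40a1 and 1 of 6 of Slc11a2, and the 4 of Tfrc in 1 of its 3. The deposited gene values do not separate forms with and without an element. A match is a description of the sequence, and neither binding of a regulatory protein nor translation was measured.

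Of the 10 genes, 5 were higher in the macrophage library by the rule and 0 in the fibroblast library. They were Fth1, Ftl1, Slc40a1, Slc11a1 and Hfe. Cp alone of the 10 lay below 5 TPM in both libraries, outside the base of the shares that follow. Among all 11191 genes at 5 TPM or more in either library, 8.77% were higher in macrophages, 14.3% in fibroblasts and 23.1% in one or the other. Among the 10788 protein-coding genes of these, the shares were 8.66%, 14.3% and 23%. With a 2-fold limit in place of 4-fold, Hmox1 and Tfrc joined, for 7 of the 10 genes toward macrophages and 0 toward fibroblasts, while 15.2% of all expressed genes passed toward macrophages, 23.6% toward fibroblasts and 38.7% in either direction. In a culture, more RNA per cell and more cells with that RNA cannot be told apart. The median log2 ratio of the 10 genes was 1.66, against -0.28 over the 13606 genes at 1 TPM or more in either library. The genes were chosen with earlier results of these data known, so these figures describe the list and do not test it. The plot of TPM by gene shows the widest gap toward macrophages for Slc11a1, then Fth1, Slc40a1, Ftl1 and Hfe. The macrophage point lies nearly on the fibroblast point for Cp and Steap3.

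**Figure D1:**
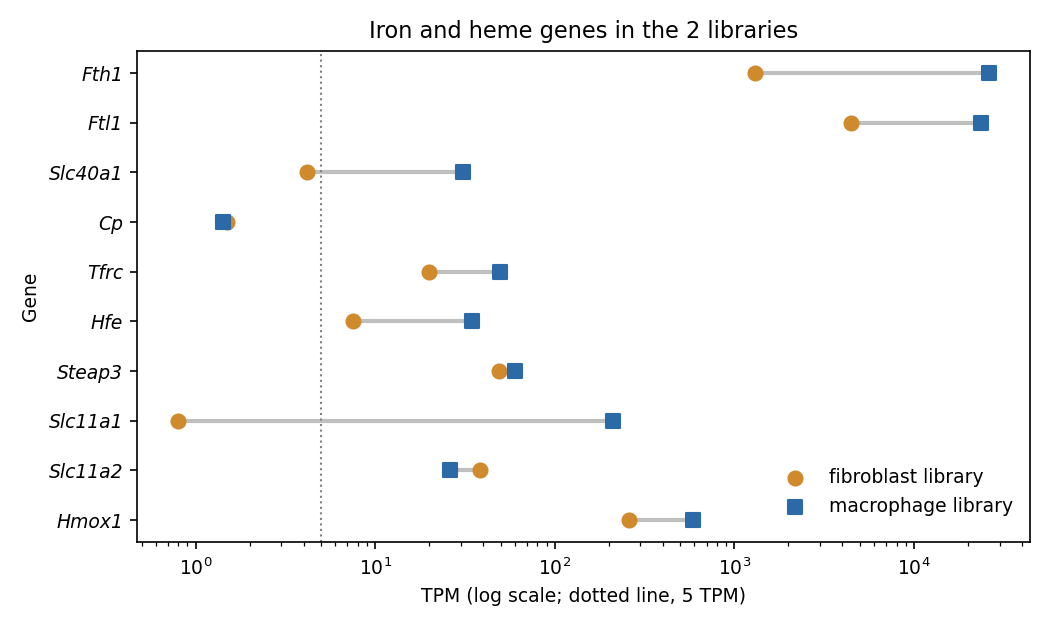
TPM of the 10 genes on a log axis in the fibroblast library (circles) and the macrophage library (squares), 1 library each, joined by a grey line; the dotted line marks 5 TPM. The widest gap is that of Slc11a1, from 0.799 to 212 TPM, and the highest levels are those of Fth1 and Ftl1.

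The storage genes gave the most abundant messengers of the macrophage library. Fth1, whose heavy chain carries the ferroxidase activity that lets iron into the shell, stood at 1303 TPM in the fibroblast library and 26253 TPM in the macrophage library, a 20.1-fold difference and a log2 ratio of 4.33. It ranked 125 among all genes in fibroblasts and 1 in macrophages. Ftl1, whose light chain aids the laying down of the iron core, stood at 4451 TPM in fibroblasts against 23564 TPM in macrophages, a 5.29-fold difference and a log2 ratio of 2.40. It was already abundant in fibroblasts, where it ranked 15, and it ranked 2 in macrophages. The genes that followed in the macrophage library were the lysosomal protease gene Ctsd at 13893 TPM and the lysozyme gene Lyz2 at 12375 TPM. Together the 2 ferritin genes held 0.576% of the fibroblast TPM and 4.98% of the macrophage TPM, an 8.66-fold difference in their summed level.

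**Figure D2:**
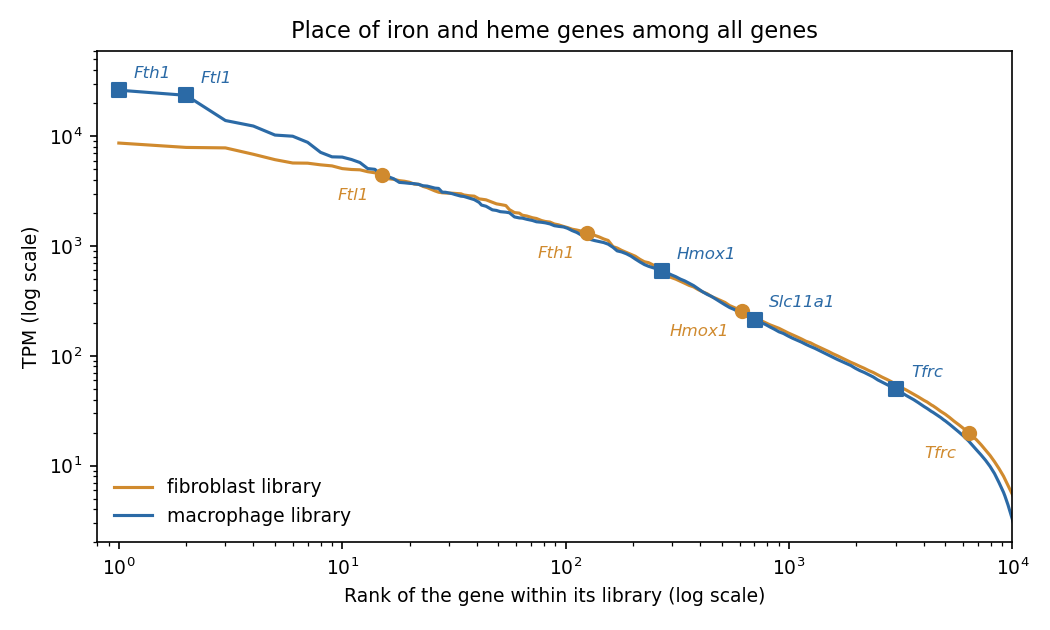
TPM against rank among all genes, both on log axes, for the fibroblast library (orange line) and the macrophage library (blue line), up to rank 10000, with circles for Fth1, Ftl1, Hmox1 and Tfrc in fibroblasts and squares for these and Slc11a1 in macrophages. Fth1 and Ftl1 head the macrophage curve at ranks 1 and 2 and stand at ranks 125 and 15 on the fibroblast curve.

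The subunits did not differ equally between the libraries. Light chain messenger was the more abundant in fibroblasts, with a ratio of Fth1 to Ftl1 of 0.293. In macrophages both messengers stood near the same level, with a ratio of 1.11 that carries no error. The ratio thus differed 3.80-fold between the libraries. Ferritin shells of different make-up are assembled from these chains, but the ratio given here is one of messengers. Fth1 is on the plus strand, chromosome 19 from 9980598 to 9985098 (GRCm38, GENCODE M21, as are all gene positions here), and Ftl1 on the minus strand, chromosome 7 from 45457944 to 45459884.

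Ferritin genes have many processed copies in the mouse genome, so reads may be divided between them. Of reference transcripts matching Fth1 or Ftl1 at 85% identity or more over at least 250 bases, 2 copies of Fth1 and 13 of Ftl1 were in the table. The most abundant was Ftl1-ps1, with 99.6% identity to Ftl1, at 57.4 TPM in fibroblasts against 145 TPM in macrophages. It is annotated as protein-coding and is counted here among the ferritin pseudogene rows by its name. The 13 copies of Ftl1 summed to 61.7 TPM in fibroblasts against 153 TPM in macrophages, and those of Fth1 to 0.252 and 3.05 TPM. With all copies added, the ratio of heavy to light chain was 0.289 in fibroblasts and 1.11 in macrophages. Ftmt, which encodes the mitochondrial ferritin, was listed at 0 in both libraries, as were the Fthl17 genes.

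Genes that load or unload ferritin were not among those past the rule. In the list of ferritin handling and iron chaperone genes, 5 of 9 were detected, which here means 1 TPM or more in at least 1 library, and 0 passed the rule in either direction, with a median log2 ratio of -0.42. Pcbp1, which encodes a chaperone that delivers iron to ferritin, stood at 240 TPM in fibroblasts against 184 TPM in macrophages. Glrx3, encoding a cytosolic glutaredoxin that binds iron-sulfur clusters, stood at 264 and 102 TPM, past a 2-fold limit toward fibroblasts. Ncoa4, named after its values were seen, encodes the receptor that carries ferritin to the lysosome and stood at 69.4 and 51.7 TPM.

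The exporter gene was also on the macrophage side, though at a far lower level. Slc40a1, encoding ferroportin, stood at 4.17 TPM in fibroblasts against 30.7 TPM in macrophages, a 7.36-fold difference with a log2 ratio of 2.62. It lies on the minus strand, chromosome 1 from 45908068 to 45926523. With a pseudocount of 5 in place of 1 its log2 ratio was 1.96, just under the limit. Cp encodes ceruloplasmin, a copper enzyme that oxidises iron as ferroportin releases it, and is made mainly by the liver. It was low in both libraries, at 1.49 TPM in fibroblasts against 1.42 TPM in macrophages, and did not differ by the rule. Heph, the gene of the related ferroxidase hephaestin, was named after its values were seen and was listed at 0.630 TPM in fibroblasts and at 0 in macrophages. Cp is on the plus strand, chromosome 3 from 19957054 to 20009145.

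Hepcidin, the hormone that removes ferroportin from the cell surface, is encoded by Hamp, which stood at 0.677 TPM in fibroblasts against 1.04 TPM in macrophages and was named after its values were seen. Hfe encodes an MHC class I-like protein of the hepcidin pathway that binds the transferrin receptor and is mutated in hereditary hemochromatosis. It stood at 7.55 TPM in fibroblasts against 34.5 TPM in macrophages, a 4.57-fold difference. Its log2 ratio of 2.06 lay just past the limit and was 1.66 with a pseudocount of 5. Its partner chain, beta-2-microglobulin from B2m, stood at 1333 and 7126 TPM, a 5.35-fold difference in the same direction. Hfe is on the minus strand, chromosome 13 from 23702034 to 23710854.

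In the list of export and hepcidin axis genes, 7 of the 13 in the table were detected. Their median log2 ratio was -0.75, with 1 gene higher in macrophages, 2 in fibroblasts and the other 4 past neither limit. The 1 was B2m, whose product serves all class I molecules. The 2 were Neo1, encoding the receptor neogenin that takes part in hepcidin induction, at 53.7 TPM in fibroblasts against 2.50 TPM in macrophages, and Erfe, encoding a secreted suppressor of hepcidin, at 10.3 and 0.148 TPM.

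Tfrc, Steap3 and Slc11a2, which act in turn as transferrin-bound iron is taken up, did not pass the rule. Tfrc, encoding the transferrin receptor, stood at 20.0 TPM in fibroblasts against 49.6 TPM in macrophages, a 2.48-fold difference that did not pass the 4-fold rule. It is on the plus strand, chromosome 16 from 32608920 to 32632794. Steap3, encoding the endosomal reductase, stood at 49.0 and 60.5 TPM, and lies on the minus strand, chromosome 1 from 120190757 to 120272705. Slc11a2, encoding the transporter that moves iron out of the endosome, was the 1 member with a log2 ratio below -0.5. It stood at 38.4 TPM in fibroblasts against 26.0 TPM in macrophages, a log2 ratio of -0.54 that did not pass the rule. It is on the minus strand, chromosome 15 from 100387898 to 100425072. Within a library, Fth1 messenger was 65.2 times as abundant as Tfrc messenger in fibroblasts and 529.8 times in macrophages. Tfrc in turn was 4.79 times as abundant as Slc40a1 in fibroblasts and 1.61 times in macrophages.

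Slc11a1 differed more than any other of the 10 genes. Its product, also called NRAMP1, is a divalent metal transporter of the phagosome membrane and is close kin to SLC11A2. It stood at 0.799 TPM in fibroblasts against 212 TPM in macrophages, a 265.8-fold difference and a log2 ratio of 6.89. The low fibroblast level makes this size depend on the pseudocount, with log2 ratios of 5.23 at a pseudocount of 5 and 7.88 at 0.1. Of the 11191 expressed genes, 97, Slc11a1 included, had a log2 ratio at least as far toward macrophages. The 2 family members were thus in opposite order, with Slc11a2 messenger 48.1 times that of Slc11a1 in fibroblasts and Slc11a1 messenger 8.16 times that of Slc11a2 in macrophages. C57BL/6J mice are known to carry an allele of Slc11a1 with a substitution that abolishes the protein's function, and the deposited values do not show the allele. Slc11a1 lies on the plus strand, chromosome 1 from 74375195 to 74386062.

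Markers of other cell types were read beside the genes higher in macrophages. In the fibroblast library Slc11a1 stood at 0.376% of its macrophage level. For 14 of 15 macrophage markers the same percentage ran from 0.0384% to 0.505%, and for Mertk it was 20.8%. It was 4.96% for Fth1, 13.6% for Slc40a1, 18.9% for Ftl1 and 21.9% for Hfe. Each of 15 macrophage markers passed the rule toward macrophages, and each of 15 fibroblast markers toward fibroblasts. Neutrophils also express Slc11a1, and of 13 neutrophil and granulocyte genes 7 were higher in the macrophage library. Those 13 genes summed to 3.03 TPM in fibroblasts, with 7 of them listed at 0, and to 526 TPM in macrophages, with 0 listed at 0. Their single levels in the macrophage library ran from 0.563 to 268 TPM, and the part of neutrophil RNA in the Slc11a1 level was not tested. The 7 genes past the rule were S100a9 at 268 TPM, S100a8 at 157 TPM, the granule protein genes Ngp at 48.3, Ltf at 12.0, Mmp8 at 7.83 and Camp at 5.17 TPM, and the receptor gene Csf3r at 15.2 TPM. Monocytes also express S100a9 and S100a8. Of 15 erythroid genes, among them the globins, 0 reached 1 TPM in either library and 8 were listed at 0 in each.

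Around these genes, the rest of the uptake list was divided. Of 13 uptake and reduction genes in the table, 10 were detected at a median log2 ratio of -0.29, with 2 higher in macrophages, 3 in fibroblasts and 5 past neither limit. Trf, encoding transferrin itself, stood at 0.989 TPM in fibroblasts against 88.1 TPM in macrophages, an 89.0-fold difference. This size rests on a low fibroblast value, and the log2 ratio was 3.96 at a pseudocount of 5 and 6.34 at 0.1. Transferrin is chiefly a liver product, and of the 13 hepatocyte genes, which include Trf, 10 were detected and Trf alone passed the rule. Lcn2, encoding a protein that captures bacterial iron carriers, stood at 0.304 and 30.1 TPM. It is also a neutrophil granule gene, and the neutrophil values above stand beside it. Its reported receptor gene Slc22a17 was on the fibroblast side, at 9.29 and 0.0874 TPM. Of the STEAP genes, Steap2 and Steap1 were higher in fibroblasts. Steap2 stood at 28.6 TPM in fibroblasts against 0.131 TPM in macrophages. Steap1, whose product lacks a reductase domain of its own, was listed at 0 in macrophages and at 18.9 TPM in fibroblasts. Steap3 was the most abundant STEAP messenger in each library, 1.71 times that of Steap2 in fibroblasts and 460.7 times in macrophages. The latter figure rests on the low Steap2 value of 0.131 TPM.

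**Figure D3:**
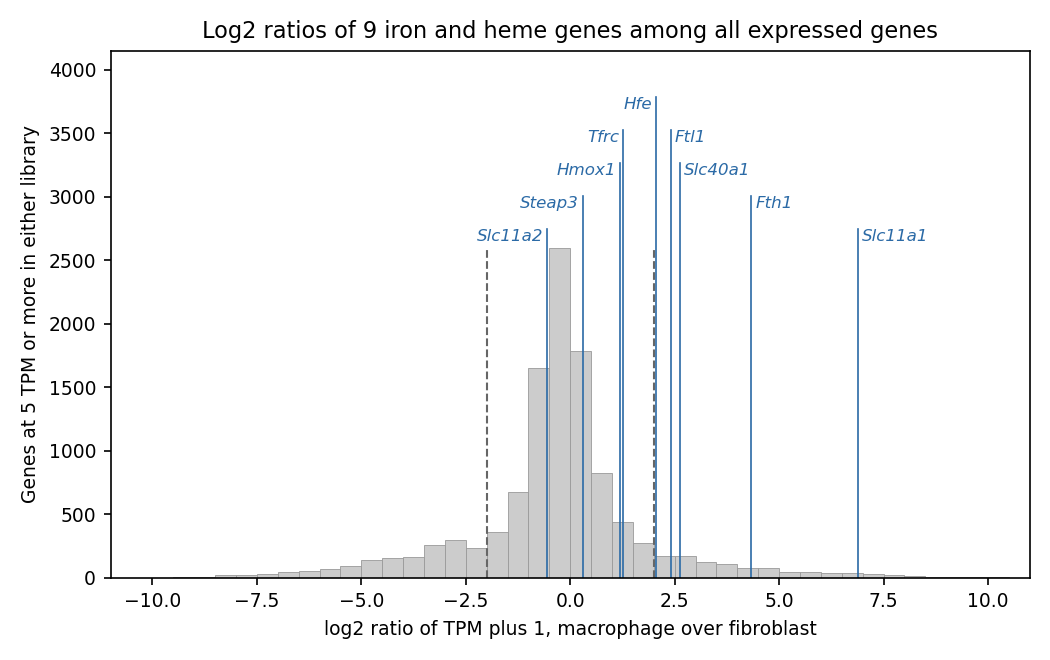
Number of genes by log2 ratio of TPM plus 1 (macrophage over fibroblast, bins of 0.5) over the 11191 genes at 5 TPM or more in either library, with vertical lines for the 9 of the 10 genes that reach 5 TPM (Cp does not) and dashed lines at the 4-fold limit. Slc11a2 alone lies left of 0, at -0.54, and Fth1 and Slc11a1 lie farthest right, at 4.33 and 6.89.

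Of the heme oxygenase and biliverdin reductase genes, Blvrb alone passed the rule, toward macrophages, as did 8.77% of all expressed genes. Hmox1, encoding the inducible heme oxygenase, stood at 258 TPM in fibroblasts against 592 TPM in macrophages, a 2.29-fold difference with a log2 ratio of 1.19 that did not pass the rule. It ranked 615 in fibroblasts and 271 in macrophages, so it was abundant in each. It is on the plus strand, chromosome 8 from 75093621 to 75100589. The constitutive enzyme gene Hmox2, named after its values were seen, stood at 51.9 and 162 TPM, so Hmox1 messenger was 4.98 times that of Hmox2 in fibroblasts and 3.64 times in macrophages. The biliverdin reductases make bilirubin from the product of heme oxygenase. Blvrb passed the rule, at 28.4 TPM in fibroblasts against 182 TPM in macrophages, a 6.41-fold difference. Blvra, named after its values were seen, came close to it, at 31.8 and 121 TPM with a log2 ratio of 1.90, and 2 genes of its list passed toward macrophages, in place of 1, under either of 2 other scalings of the libraries.

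Of 16 listed genes of heme uptake, transport and breakdown, 14 were in the table and all 14 were detected. Flvcr1 and Flvcr2 were not found under these symbols, so their levels were not read. The 14 had a median log2 ratio of 0.78, with 1 higher in macrophages, 2 in fibroblasts and 11 past neither limit. The 2 on the fibroblast side do not break down heme. Pgrmc1, encoding a heme-binding membrane protein, stood at 248 TPM in fibroblasts against 50.9 TPM in macrophages, and Abcg2, encoding an exporter that carries porphyrins among many substrates, at 79.6 and 5.96 TPM. Cd163, the haptoglobin-hemoglobin receptor gene of tissue macrophages, stood at 0.0346 and 1.84 TPM. Slc48a1, encoding the carrier that takes heme out of the phagolysosome, stood at 110 and 99.5 TPM. Cd163 and Slc48a1 were named after their values were seen.

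The sensors of cell iron and the pathways that use it held no gene past the 4-fold rule, whereas a pseudocount of 0.1 gave 1 toward macrophages among the regulatory protein genes and 1 in iron-sulfur cluster assembly. Rescaling without mitochondrial genes and the 50 highest of each library also gave 1 in iron-sulfur cluster assembly. Of 11 genes of the iron regulatory proteins and of iron-dependent turnover, 11 were detected and 0 passed the rule, with a median log2 ratio of -0.01. Over all 13606 detected genes, 981 passed toward macrophages and 1602 toward fibroblasts. The highest in fibroblasts were Skp1a, a subunit gene of the ubiquitin ligase that removes an iron regulatory protein, at 194 TPM in fibroblasts against 94.3 TPM in macrophages, and the hypoxia factor gene Hif1a, at 102 and 51.5 TPM. Aco1 and Ireb2, which encode the iron regulatory proteins themselves and were named after their values were seen, stood at 35.5 and 30.8 TPM and at 26.7 and 21.9 TPM. Fbxl5, the iron-sensing subunit gene of that ligase, also named afterwards, stood at 24.6 and 24.5 TPM.

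Of 15 genes of heme synthesis and mitochondrial iron import, 14 were detected and 0 passed the rule, with a median log2 ratio of -0.21 and 12 of the 14 differing by less than 2-fold on TPM plus 1. Alas1, encoding the first enzyme of heme synthesis in cells other than red cell precursors, stood at 73.2 TPM in fibroblasts against 114 TPM in macrophages. Tmem14c, needed for porphyrin import into mitochondria, stood at 161 and 232 TPM. Of 18 iron-sulfur cluster assembly genes, 18 were detected and 0 passed the rule, with a median of 0.24 and 17 of the 18 differing by less than 2-fold. The scaffold gene Iscu stood at 128 and 119 TPM, and the chaperone gene Hspa9 at 369 and 198 TPM.

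**Figure D4:**
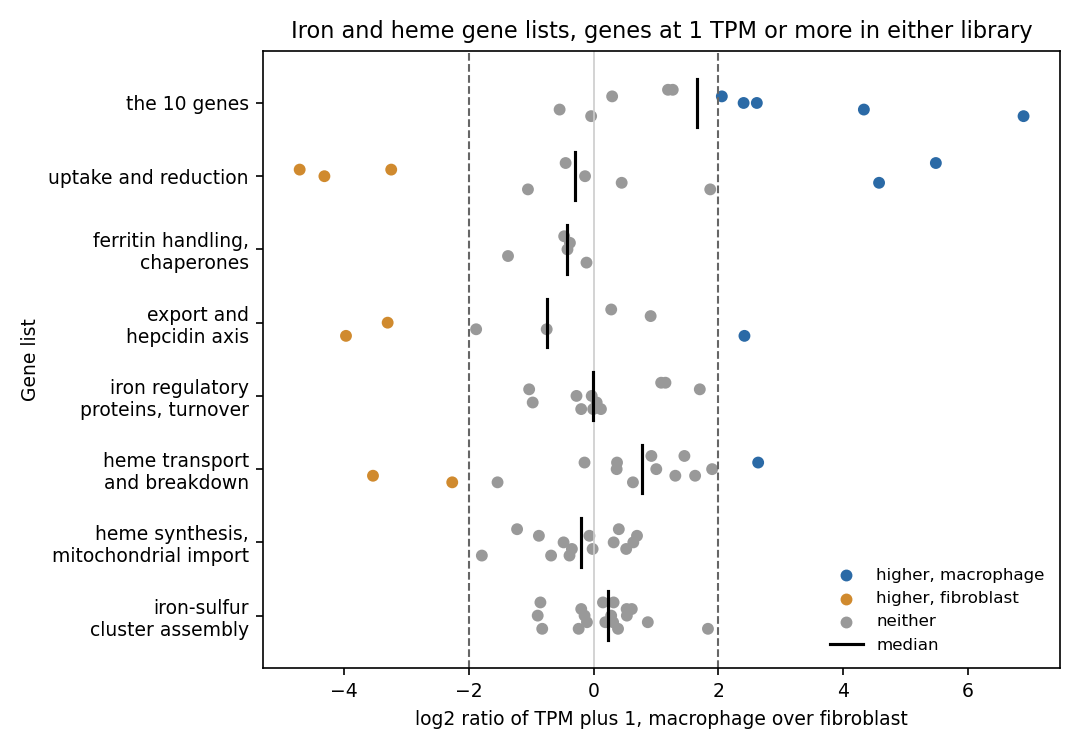
Log2 ratio of TPM plus 1 (macrophage over fibroblast) of each gene at 1 TPM or more in either library, for the 10 genes and 7 lists of other iron and heme genes; colours give the call by the 4-fold rule, dashed lines the limit and black bars the list median. The medians of the lists lie between -0.75 and 0.78, and that of the 10 genes at 1.66.

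The list of regulator genes of these messengers holds the transcription factors known to act on Hmox1, ferritin and ferroportin genes and their partners. Of its 13 genes, 12 were detected and 0 passed the rule, with a median log2 ratio of 0.39. With a pseudocount of 0.1, 1 passed toward macrophages. Nfe2l2, encoding the activator NRF2, stood at 77.2 TPM in fibroblasts against 143 TPM in macrophages, and Rbx1, a subunit gene of the ligase that degrades NRF2, at 101 and 77.2 TPM. Bach1, encoding the heme-sensing repressor of Hmox1, was named after its values were seen and stood at 15.0 and 23.5 TPM. Spic, encoding the factor of splenic red pulp macrophages, also named afterwards, was at 0.0623 and 0.0836 TPM.

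Over all other iron and heme lists, the NRF2 targets described at the end included, 106 genes were detected. Their median log2 ratio was 0.15, and 5 were higher in macrophages, 8 in fibroblasts and 93 past neither limit. On the same base of 1 TPM, 981 of all 13606 detected genes passed the rule toward macrophages and 1602 toward fibroblasts.

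For the 3 of the 10 genes that differed most, the protein-coding genes with the most similar pair of levels were listed by Euclidean distance on log2 of TPM plus 1 over the 2 libraries. With 2 libraries such likeness rests on 2 values a gene. Slc11a1 was nearest to Lst1, at 0.665 TPM in fibroblasts against 206 TPM in macrophages, to Fermt3 and to Oasl2, at distances of 0.12 to 0.18. Slc40a1 was nearest to Creb5, at 4.47 and 30.8 TPM, to Ptprj and to the cholesterol exporter gene Abca1, at distances of 0.080 to 0.21. Fth1 had no close neighbour: the nearest were Ctsd, at 2115 and 13893 TPM and a distance of 1.15, then Ftl1 at 1.78 and the galectin gene Lgals3 at 1.82.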

How the data were processed

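The deposited table gives 1 value per gene and library. Its header names no unit, and the columns were read as TPM from their totals of 999545 and 999609. The TPM were computed by the authors before deposit, and the submitters' processing notes name kallisto 0.43.1 and GRCm38. How transcripts were chosen, filtered and summed to genes is not given in the sources used here. Read depth cannot be had from TPM, so no counting error is given, and 0 is only the listed value. Per the labels' protocols, a stranded poly(A) kit and paired reads of 76 bases were used.

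The table's 34456 rows were added by symbol into 34295 genes with pandas 2.3.3, keeping 28 date-like names apart by description. Genes past the 4-fold rule were counted as the report states. How often the rule errs on these data was not tested, since each cell type has 1 library. Members and lists were chosen with earlier results of these data known. Named genes are all 10 members. In each other list they are up to 4 genes per direction past the rule with the highest level, or the 2 highest where none passed. To these come the 3 nearest genes of 3 members, and ferritin pseudogene rows at 5 TPM or more. Ferritin copies were found with blastn 2.17.0. Positions and elements come from GENCODE M21, which held 93.9% of the symbols. A planned comparison of protein sequences was not run. The alternatives tried comprised pseudocounts of 0.1 and 5, other level minimums (1 TPM, 10 TPM, none), a 2-fold rule, 2 other scalings, the highest row of a symbol, added ferritin copies and protein-coding genes alone.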

Additional observations from a re-analysis of the deposited data

How the results depend on the processing

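The count of members higher in macrophages was 5 as reported and 3 with a pseudocount of 5, since Slc40a1 and Hfe then fell below the limit. It stayed within 1.5 times the reported count under each other alternative, and the count toward fibroblasts was 0 under all of them. The median log2 ratio of the members was 1.74 with a pseudocount of 0.1, 1.42 with a pseudocount of 5, 1.83 with median-of-ratios scaling and 1.81 when rescaled on what is left after setting aside mitochondrial genes and each library's 50 highest. Those scalings moved the median log2 ratio of genes reaching 5 TPM in both, -0.18 as deposited, by 0.18 and 0.13. Of 106 other iron and heme genes detected, 9 were higher in macrophages with a pseudocount of 0.1 and 8 when so rescaled. The 2-fold rule gave 24 toward macrophages, 8 of them NRF2 targets outside iron handling, and 15 toward fibroblasts. By that rule 15.2% and 23.6% of all genes at 5 TPM or more in either library passed. Among the regulator genes of Hmox1 and ferritin, that rule gave 3 toward macrophages and 2 toward fibroblasts. With a pseudocount of 5, Slc22a17, Erfe, Osgin1 and Creb5 no longer passed, at log2 ratios of -1.49, -1.57, 1.62 and 1.92, nor did Slc22a17 with a minimum of 10 TPM.

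The share of the 2 ferritin genes in fibroblasts and macrophages was 0.581% and 5.00% with pseudogene rows added, 0.605% and 5.14% without mitochondrial genes, and 0.582% and 5.00% with sequence copies added, an alternative chosen after seeing the data. The ratio of Fth1 to Ftl1 was 0.289 and 1.11 with pseudogene rows or with copies added. Among protein-coding genes alone 23.0% passed the 4-fold rule, against 23.1% of all. No paired analysis was possible because each group holds 1 library, and no library could be left out. Depth is unknown, so how far counting error reaches into low values such as those of Cp, Hamp or Slc11a1 in fibroblasts cannot be given.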

Other observations

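Targets of NRF2 outside iron handling stood mostly on the macrophage side of 0 without passing the 4-fold rule. Of 15 genes, 15 were detected. With 1 higher in macrophages, 1 in fibroblasts and 13 past neither limit, their median log2 ratio was 1.11, against -0.28 over all detected genes. Osgin1, encoding an oxidative stress response protein, stood at 4.55 TPM in fibroblasts against 24.3 TPM in macrophages. Nqo1, encoding a quinone reductase and a widely used NRF2 target, was on the opposite side, at 72.8 TPM in fibroblasts against 3.86 TPM in macrophages. Genes of the pentose phosphate route, named after their values were seen, were among those in neither group: Pgd stood at 124 and 416 TPM and Taldo1 at 167 and 507 TPM. On TPM plus 1, 8 of the 15 differed by at least 2-fold toward macrophages, 1 toward fibroblasts and 6 by less. Among these 6, and also named afterwards, Txnrd1 stood at 227 and 189 TPM, Gsr at 28.3 and 31.2 TPM and Slc7a11 at 1.56 and 1.42 TPM. Hmox1, with its log2 ratio of 1.19, is itself a target of NRF2. NRF2 activity was not measured, and its part in any of these levels was not tested.

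Markers of iron-recycling macrophages of spleen and liver were mostly low in the macrophage library. Of 11 such genes, 2 were higher in macrophages, Siglec1 at 162 TPM and Cd5l at 25.9 TPM, and 2 were higher in fibroblasts, Vcam1 at 71.4 TPM and Hpgd at 15.9 TPM. Clec4f and Timd4 were listed at 0 in both libraries. These genes were named after their values were seen.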
